A study of Mus musculus with 26 samples.

Results

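Stat2, Stat3, Irf1, Irf5, Irf7, Irf8, Irf9, Socs1 and Socs3 carry, amplify or shut off cytokine and interferon signals inside the cell. They are 9 of the 19051 mouse genes for which the array annotation gives a probe with 1 gene symbol, and every probe annotated to them was taken, 16 in all. All 16 probes passed the detection filter, which asked for 5 or more arrays of a group with a detection p under 0.01. Stat2, Irf5, Irf7, Irf8, Socs1 and Socs3 had 1 probe each, Irf9 had 2, Stat3 had 3 and Irf1 had 5.

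Their RNA was measured in HCmel3 melanomas, with 1 Illumina MouseWG-6 bead array (version 2) for each sample. HCmel3 is a mouse melanoma, here excised from the skin of C57BL6 mice. The EDT group (early during treatment) held 8 tumours taken 12 to 20 days after the start of adoptive T cell transfer, and the NT group held 8 untreated tumours. The relapse group held 5 tumours that had come back after the transfer, and the ctrl group held 5 untreated tumours of the second set of arrays. Treated mice were given cyclophosphamide once, then CD8+ pmel-1 T cells with a transgenic receptor for the melanocyte antigen gp100, an adenovirus vaccine carrying gp100, and the innate stimuli CpG and polyI:C. No group received only a part of this, so the parts cannot be told apart. The labels do not say which day each EDT tumour was taken, nor that the samples of a group came from separate animals. P-values therefore measure the spread between these samples, part of which may be technical. Titles of the second set speak of a repeated analysis without saying what was repeated. Levels are compared only within a set.

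Interferons and interleukins bind receptors whose attached Janus kinases phosphorylate STAT proteins, which pair up and enter the nucleus. Type I interferons, made on sensing viral nucleic acid, assemble the complex ISGF3 from STAT2, IRF9 and a further STAT, and this complex binds the interferon-stimulated response element (ISRE). Interferon gamma, a product of activated T cells and natural killer cells, drives STAT dimers to the gamma-activated sequence (GAS) in genes such as Irf1. STAT3 carries signals of the interleukin 6 and interleukin 10 families. SOCS proteins are made in answer to these signals and shut the receptors and kinases off again. In melanoma, interferon gamma from T cells is known to raise antigen presentation by tumour cells.

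Because these genes are themselves targets of the pathway they serve, their promoters were searched for its elements. The windows run from 250 bases before to 50 bases after the annotated start, from RefSeq on mouse build GRCm38.p6, and all 9 genes matched by symbol. The ISRE core was searched as GAAANNGAAA and the GAS as TTCNNNGAA, on both strands. Stat2 and Socs1 held the ISRE core, which 3.44% of all 32851 promoter windows and 3.99% of the 27025 genes searched hold. Irf1, Irf8 and Socs3 held the GAS, which 8.3% of windows and 9.55% of genes hold. Stat3, Irf5, Irf7 and Irf9 held neither set of letters in this window, nor did the second windows of Irf1 and Irf8. The stricter TTCCNGGAA, which is contained in the GAS letters, was in no window of the 9 genes and in 1.15% of all windows. A match is a run of letters and not a measured binding site. The 5 windows with a match are printed 5′ to 3′ on the strand of the gene, with the matches in capitals, because these genes span strong, weak and set-dependent changes in the values that follow. The stretches lie at chr10:128270248-128270547 (plus strand) for Stat2, chr11:53769764-53770063 (plus) for Irf1, chr8:120736108-120736407 (plus) for Irf8, chr16:10785487-10785786 (minus) for Socs1 and chr11:117969317-117969616 (minus) for Socs3. In Socs1 a pair of overlapping matches forms 1 run of capitals.
Stat2: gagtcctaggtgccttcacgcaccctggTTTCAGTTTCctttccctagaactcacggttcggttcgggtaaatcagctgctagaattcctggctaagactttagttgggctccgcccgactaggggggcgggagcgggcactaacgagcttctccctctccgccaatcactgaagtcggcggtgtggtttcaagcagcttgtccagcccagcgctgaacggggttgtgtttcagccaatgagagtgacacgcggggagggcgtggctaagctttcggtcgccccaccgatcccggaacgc
Irf1: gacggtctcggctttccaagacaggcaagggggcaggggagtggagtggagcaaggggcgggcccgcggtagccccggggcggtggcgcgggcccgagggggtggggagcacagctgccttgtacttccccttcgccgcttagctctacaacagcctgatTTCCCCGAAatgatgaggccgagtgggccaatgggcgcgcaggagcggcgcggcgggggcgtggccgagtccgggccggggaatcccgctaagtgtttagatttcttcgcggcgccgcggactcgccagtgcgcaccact
Irf8: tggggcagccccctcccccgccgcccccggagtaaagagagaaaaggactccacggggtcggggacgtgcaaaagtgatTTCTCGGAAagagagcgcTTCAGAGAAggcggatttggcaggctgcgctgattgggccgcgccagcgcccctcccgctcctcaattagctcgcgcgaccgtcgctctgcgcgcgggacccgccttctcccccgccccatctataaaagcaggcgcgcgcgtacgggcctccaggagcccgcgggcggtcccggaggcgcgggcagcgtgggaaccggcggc
Socs1: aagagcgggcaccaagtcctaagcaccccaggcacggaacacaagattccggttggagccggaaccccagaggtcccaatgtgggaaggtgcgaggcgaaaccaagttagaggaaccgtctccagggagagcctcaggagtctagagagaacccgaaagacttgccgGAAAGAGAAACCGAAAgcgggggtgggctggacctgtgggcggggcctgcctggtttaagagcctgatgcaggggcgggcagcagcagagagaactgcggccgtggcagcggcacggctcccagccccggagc
Socs3: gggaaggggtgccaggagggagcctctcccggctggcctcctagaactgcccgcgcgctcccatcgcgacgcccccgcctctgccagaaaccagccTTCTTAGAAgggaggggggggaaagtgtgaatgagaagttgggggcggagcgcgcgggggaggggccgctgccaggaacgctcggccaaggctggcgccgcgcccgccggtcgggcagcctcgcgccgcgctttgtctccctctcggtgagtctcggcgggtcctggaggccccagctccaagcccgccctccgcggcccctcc

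EDT arrays detected 15008 to 16830 probes and NT arrays 14064 to 16312, relapse arrays 15992 to 18323 and ctrl arrays 14545 to 17033. Melanocyte marker genes were detected on every NT and ctrl array, which matches the labelled tumour type. Tyr, the key enzyme of melanin synthesis, was detected on 0 of 5 relapse arrays. The arrays sat on 7 slides: slide 5 held both EDT and NT tumours, slides 6 and 7 held both relapse and ctrl tumours, and slides 1 to 4 held EDT or NT tumours alone.

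The first comparison asked how tumours early during treatment differed from untreated ones. Of the 9 genes, 8 rose in EDT tumours and 0 fell at a limma adjusted p of 0.05, while 29.6% of the 9553 genes tested changed, with 14.5% that rose and 15.1% that fell. Their median change was 1.95 on the log2 scale, with a range of 0.36 to 2.90, against a median of -0.05 over all genes. For 5 of them (Stat2, Irf1, Irf5, Irf8 and Irf9) every EDT tumour lay above every NT tumour, which held for 4.58% of all genes. Irf7 and Socs1 passed the detection filter only through treated tumours, which favours a higher value there. Of the 7 genes that also passed through NT or ctrl arrays 6 rose in EDT, beside 11.8% of the 8783 such genes in all. Values below are log2 normalised signals, changes are differences of group means ± SE (n = 8 and 8, or 5 and 5), and adjusted p-values come from limma over all 9553 genes. In pieces of whole tumour, fewer cells of a type and less RNA per cell cannot be told apart.

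**Figure D1:**
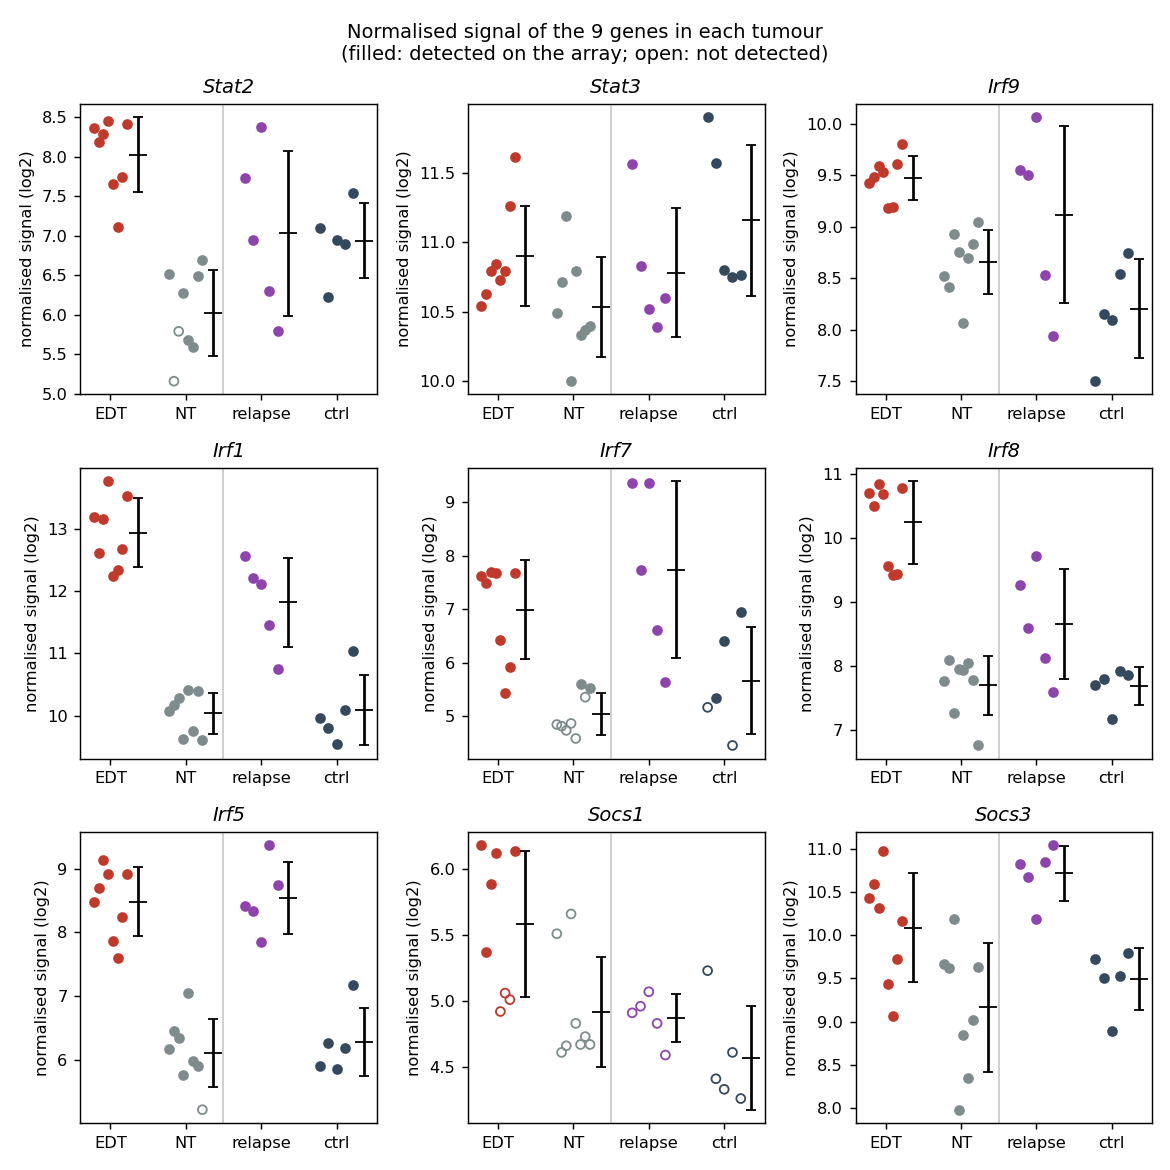
Normalised signal (log2) of the probe that stands for each gene, in every tumour of the EDT, NT, relapse and ctrl groups; filled points are detected (p under 0.01), open points are not, and bars give the mean and SD beside each group. Irf1, Irf8, Irf5, Stat2 and Irf9 separate the EDT and NT tumours fully, while relapse and ctrl separate fully for Irf5 and Socs3; the grey line divides the 2 sets of arrays, whose levels are not comparable.

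Stat2 supplies the activation domain of ISGF3. Its signal ran between 7.11 and 8.45 in EDT tumours, with a median of 8.23, against 5.16 to 6.69 in NT tumours, with a median of 6.03. It rose by 2.0 ± 0.24 (adjusted p = 8.2e-06), or by 1.19 without background correction, and the groups did not overlap. Irf9, the subunit through which ISGF3 reads the ISRE, had a lowest, median and highest signal of 9.18, 9.51 and 9.81 in EDT tumours and of 8.07, 8.73 and 9.05 in NT tumours. Its rise of 0.82 ± 0.14 (adjusted p = 0.000337) was smaller than that of Stat2, yet its SD of 0.21 among EDT tumours was the lowest of the 9 genes there. The second Irf9 probe rose by 0.71 ± 0.15 (adjusted p = 0.00246).

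Stat3 was the 1 gene that did not pass. Its signal ran between 10.54 and 11.61 in EDT tumours (median 10.79) and between 10 and 11.19 in NT tumours (median 10.44), so the groups overlapped over most of their range. The change was 0.36 ± 0.18 (adjusted p = 0.129). Of its other probes, 1 passed in the fit over all probes, at 0.46 ± 0.16 (adjusted p = 0.047), and the third, annotated to another RefSeq transcript, gave 0.30 ± 0.18 (adjusted p = 0.232). Stat3 passed with median centring of the arrays (0.71, adjusted p = 0.00697, where the median of all genes was 0.29), with the authors' processed values (0.46, adjusted p = 0.039) and without NT tumour 3 (0.46, adjusted p = 0.0477).

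Irf1, an early target of interferon gamma that drives antigen presentation genes, had the largest change of the 9. It reached 12.25 to 13.77 in EDT tumours (median 12.92) and 9.61 to 10.41 in NT tumours (median 10.13). The rise of 2.90 ± 0.22 equals 7.47-fold (adjusted p = 5.3e-08), and the gap between the lowest EDT and the highest NT tumour exceeded the whole range of either group. The other 4 Irf1 probes moved the same way. In the fit over all probes 3 of them rose by 3.11, 3.21 and 2.90. The dimmest, not detected on any NT or ctrl array, passed the filter only through treated tumours, which favours a higher value there. It was at least 2.58-fold higher, and its measured change was 2.06 (limma adjusted p = 1.06e-05).

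Irf8 directs the development of monocytes and dendritic cells and is also induced by interferon gamma. EDT tumours held 9.43 to 10.85 (median 10.60) and NT tumours 6.76 to 8.09 (median 7.86). The rise was 2.55 ± 0.26, or 5.84-fold (adjusted p = 1.36e-06). Irf5, which switches on inflammatory cytokine genes in macrophages, held 7.60 to 9.14 in EDT tumours (median 8.59) and 5.21 to 7.04 in NT tumours (median 6.07). It rose 5.2-fold, by 2.38 ± 0.25 (adjusted p = 2.22e-06; 1.51 without background correction), and as with Irf8 no NT tumour reached the lowest EDT tumour.

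Irf7, the factor that amplifies type I interferon production and is itself an ISGF3 target, was detected on 8 EDT arrays and on 2 NT arrays. It ran from 5.43 to 7.69 in EDT tumours (median 7.55) and from 4.59 to 5.60 in NT tumours (median 4.86), so the lowest EDT tumour fell inside the NT range. It rose by 1.95 ± 0.32 (adjusted p = 0.000249), a size that is not exact because most NT signals were near background. Since Irf7 passed the detection filter only through treated tumours, its p-values are description and not support for a rise. Without background correction the rise was 0.91 (adjusted p = 0.000708).

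Both inhibitors passed by a narrow margin. Socs1, which blocks Janus kinases and interferon gamma signalling, was detected on 5 EDT arrays and 0 NT arrays. Its signal ran between 4.92 and 6.18 in EDT tumours (median 5.63) and between 4.61 and 5.66 in NT tumours (median 4.70). The change of 0.67 ± 0.23 (adjusted p = 0.035) gives no fold, since the level is too near background for a bound above 1. Because Socs1 passed the detection filter only through treated tumours, its p-values are description and not support for a rise. Socs3, the inhibitor of interleukin 6 type receptors, ran between 9.07 and 10.97 in EDT tumours (median 10.24) and between 7.98 and 10.19 in NT tumours (median 9.32). It rose 1.89-fold, by 0.92 ± 0.32 (adjusted p = 0.035), with overlapping groups. Leaving out 1 tumour at a time ended the Socs1 call in 10 of 16 fits (any of EDT tumours 1, 3, 4 and 8 or NT tumours 2, 3, 5, 6, 7 and 8; change of 0.59 to 0.66, adjusted p of 0.0531 to 0.0748). It ended the Socs3 call in 9 of 16 (EDT tumours 1, 2, 3, 4 and 8 or NT tumours 4, 5, 6 and 7; 0.75 to 0.91, adjusted p of 0.0554 to 0.0758). Without background correction Socs1 gave 0.25 (adjusted p = 0.0537), and without the detection filter neither passed (adjusted p = 0.0673 and 0.0737).

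Slide 5, with 2 EDT and 3 NT tumours, gave the same direction for all 9 genes. Changes there were 3.18 for Irf1 (limma adjusted p = 0.00717), 2.89 for Irf5 (0.00743) and 2.59 for Irf8 (0.0371), and these 3 passed. Stat2 at 1.82 (adjusted p = 0.0505), Stat3 at 1.07 (0.0565), Irf9 at 0.85 (0.119), Irf7 at 1.30 (0.204), Socs1 at 0.88 (0.238) and Socs3 at 0.94 (0.261) did not pass in these 5 tumours. With slide as a fixed block over all 16 arrays the sizes were the same, since no other slide holds both groups. In that fit Irf7 (adjusted p = 0.131), Socs1 (0.204) and Socs3 (0.234) did not pass, while Stat3 did (0.0133). With slide as a random block Socs1 alone lost its call (0.69, adjusted p = 0.0567).

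The second comparison set tumours that had relapsed against untreated tumours of the same arrays. Here 4 of the 9 genes rose (Irf1, Irf5, Irf7 and Socs3) and 0 fell, while 30.8% of all genes changed, with 13.3% that rose and 17.5% that fell. The median change was 0.97, with a range of -0.37 to 2.27, and the median over all genes was -0.07. Without Irf7 and Socs1, 3 of 7 rose, beside 11.2% of the 8783 genes that passed through NT or ctrl arrays. Irf5 and Socs3 were higher in every relapse tumour than in every ctrl tumour, which held for 7.43% of genes.

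Irf5 held 8.41, 8.33, 7.85, 9.37 and 8.75 in relapse tumours 1 to 5, and 5.89, 6.26, 5.85, 6.18 and 7.17 in ctrl tumours 1 to 5. All 5 relapse tumours lay above the highest ctrl tumour, and Irf5 rose by 2.27 ± 0.32, or 4.83-fold (adjusted p = 0.000724; 1.42 without background correction). Socs3 held 10.83, 10.67, 10.19, 10.85 and 11.04 in relapse tumours, against 9.73, 9.51, 8.89, 9.53 and 9.79 in ctrl tumours. It rose by 1.23 ± 0.23, or 2.35-fold (adjusted p = 0.00291), and its relapse tumours lay close together (SD 0.32).

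Irf1 held 12.56, 12.22, 12.11, 11.46 and 10.75 in relapse tumours and 9.96, 9.81, 9.55, 10.09 and 11.04 in ctrl tumours. Relapse tumour 5 was below ctrl tumour 5, and the other relapse tumours were above all ctrl tumours. The rise of 1.73 ± 0.37 equals 3.31-fold (adjusted p = 0.00539). The 3 brighter of the other probes rose by 2.05, 2.21 and 2.12 in the fit over all probes, while the dimmest gave 0.73 (adjusted p = 0.0696). Irf7 held 9.35, 7.73, 9.36, 6.61 and 5.64 in relapse tumours and 5.17, 5.34, 6.41, 4.46 and 6.94 in ctrl tumours, with detection on 5 relapse and 3 ctrl arrays. Its relapse tumours had an SD of 1.65, the widest of any gene and group here. As in EDT, the p-values of Irf7 are description only, since it passed the detection filter only through treated tumours. Irf7 passed at 2.08 ± 0.72 (adjusted p = 0.047), and the call was lost in 7 of 10 fits that left out 1 tumour (relapse tumours 1 to 3 or ctrl tumours 1 to 4; 1.67 to 2.26, adjusted p of 0.0595 to 0.106). It was also lost without background correction (1.18, adjusted p = 0.0675) and without the detection filter (adjusted p = 0.114).

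The remaining 5 genes did not pass. Irf8 held 9.27, 8.59, 9.72, 8.13 and 7.59 in relapse tumours and 7.70, 7.80, 7.17, 7.92 and 7.86 in ctrl tumours, a change of 0.97 ± 0.36 (adjusted p = 0.061). Irf9 held 9.55, 9.50, 10.07, 8.53 and 7.94 in relapse tumours and 7.50, 8.15, 8.09, 8.54 and 8.75 in ctrl tumours, a change of 0.91 ± 0.39 (adjusted p = 0.0943). In both genes relapse tumours 1 to 3 lay above all ctrl tumours and relapse tumour 5 did not. The second Irf9 probe passed, at 1.13 ± 0.38 (adjusted p = 0.0413), and Irf9 itself passed with the authors' values (1.08, adjusted p = 0.0435), with median centring (1.38, adjusted p = 0.0206) and without relapse tumour 5 (1.21, adjusted p = 0.029). Irf8 passed under the same 3 settings, at 1.17, 1.47 and 1.24 (adjusted p = 0.0269, 0.0162 and 0.0211).

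Stat2 held 7.73, 6.95, 8.37, 6.30 and 5.80 in relapse tumours and 7.09, 6.23, 6.94, 6.89 and 7.54 in ctrl tumours. The groups overlapped and their means differed by 0.09 ± 0.44 (adjusted p = 0.893), a value that turned to -0.24, -0.08 or -0.09 without relapse tumour 3, relapse tumour 1 or ctrl tumour 2. Stat3 held 11.56, 10.83, 10.52, 10.39 and 10.60 in relapse tumours, against 11.90, 11.57, 10.80, 10.75 and 10.76 in ctrl tumours, a change of -0.37 ± 0.30 (adjusted p = 0.36). Its probe for another transcript gave 0.59 ± 0.22 (adjusted p = 0.059), opposite in sign to the other Stat3 probes at -0.37 and -0.43. Socs1 was detected on 0 relapse and 0 ctrl arrays. Its relapse values were 4.91, 4.96, 5.07, 4.83 and 4.59 and its ctrl values 5.23, 4.41, 4.33, 4.61 and 4.26, with a difference of means near background of 0.30 ± 0.21 (adjusted p = 0.299). Over the 16 probes, fitted with all 16624 that passed, 14 were higher and 0 lower in EDT, beside 27% of all probes called, 12.5% higher and 14.5% lower. In relapse 8 were higher and 0 lower, beside 31% of all probes called, 14.6% higher and 16.4% lower. Irf1 holds 5 of the 16 probes, so these counts partly repeat that gene. The probes of Irf7 and Socs1 and the dimmest Irf1 probe passed the filter only through treated tumours, which favours a higher value there.

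**Figure D2:**
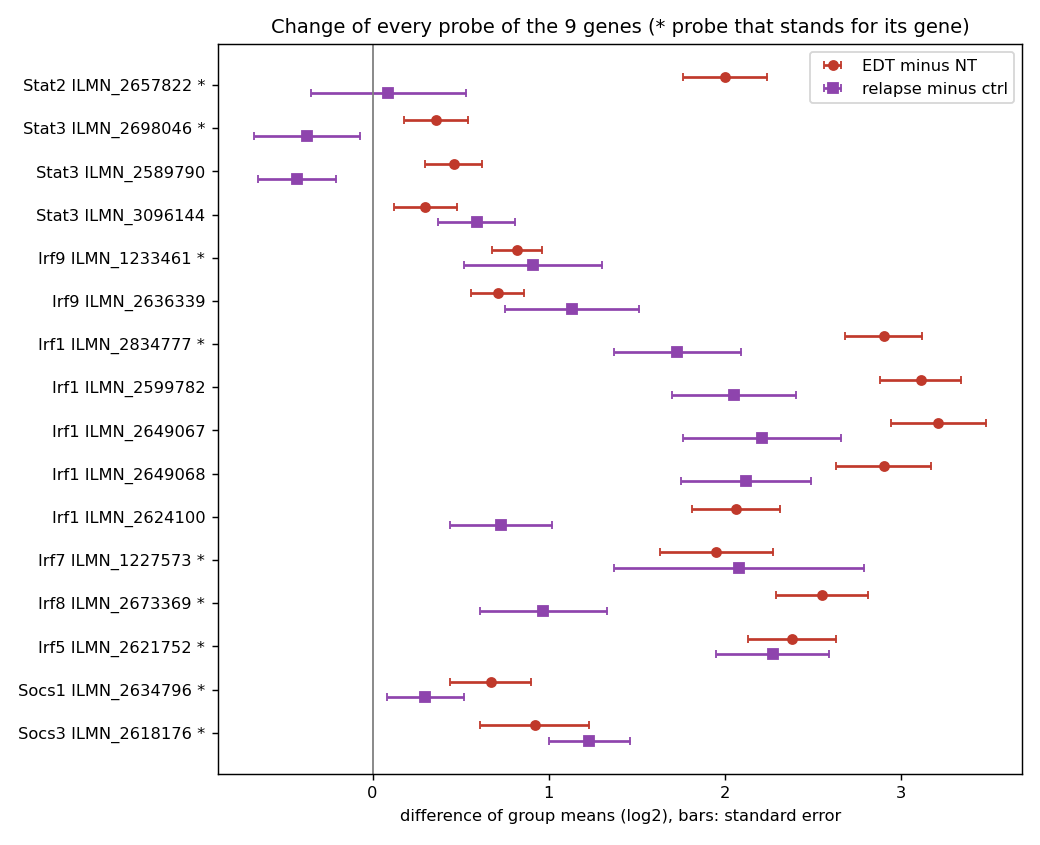
Difference of group means (log2, x axis) with SE bars for each of the 16 probes, EDT minus NT and relapse minus ctrl; a star marks the probe that stands for its gene. All 5 Irf1 probes lie right of 0 in both comparisons, while the Stat3 probes lie on both sides of 0 in relapse minus ctrl.

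Several genes had unlike values on the 2 slides of relapse tumours. Slide 6 held relapse and ctrl tumours 1 to 3, and slide 7 held relapse and ctrl tumours 4 and 5. The change on slide 6 was 3.18 for Irf7, 2.52 for Irf1, 1.79 for Irf9, 1.64 for Irf8 and 0.93 for Stat2, and of these Irf7, Irf1, Irf9 and Irf8 passed in limma (adjusted p = 0.0191, 0.00385, 0.0182 and 0.0416). On slide 7 the same genes gave 0.43, 0.54, -0.41, -0.03 and -1.16, and none of them passed (adjusted p of 0.0596 to 0.952). Irf5 gave 2.20 on slide 6 and 2.39 on slide 7 and passed on each (adjusted p = 0.00778 and 0.014). Socs3 gave 1.19 and 1.29 and passed on slide 7 (adjusted p = 0.0238) but not on slide 6 (adjusted p = 0.072).

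The slide 6 change minus the slide 7 change, a test added after these values were seen, was 2.21 ± 0.45 for Irf9, 1.98 ± 0.49 for Irf1, 2.09 ± 0.63 for Stat2, 1.67 ± 0.51 for Irf8 and 2.75 ± 1.08 for Irf7. None passed in limma over all genes (adjusted p of 0.486 to 0.591). Of 9553 genes 0 passed, and 760 had an unadjusted p under 0.05. The unadjusted limma p was 0.000661 to 0.0294 for the genes just named and 0.718 to 0.91 for the rest of the 9. These carry no weight as a test, since it was added after the values were seen. For Irf5 the difference was -0.19 ± 0.51 (adjusted p = 0.917) and for Socs3 -0.10 ± 0.45 (adjusted p = 0.954).

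Cell markers also moved with the slides. The mean log2 signal of the T cell genes was 7.36, 7.13 and 7.05 in relapse tumours 1 to 3 and 6.59 and 5.85 in relapse tumours 4 and 5. Against ctrl the T cell list gave a median of 1.55 on slide 6 and 0.50 on slide 7, while the macrophage list gave 2.27 and 2.66 and the melanocyte list -3.28 and -4.73. Other lists differed more between the slides than the T cell list: keratinocytes gave 0.90 on slide 6 and 4.50 on slide 7 (2 genes), neutrophils 0.78 and 2.06, skeletal muscle 0.71 and -1.25, and erythroid cells -1.77 and -0.42 (2 genes). Leukocytes gave 1.79 and 2.05. The part of these cells, or of the slides themselves, in the changes of the 9 genes was not tested.

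**Figure D3:**
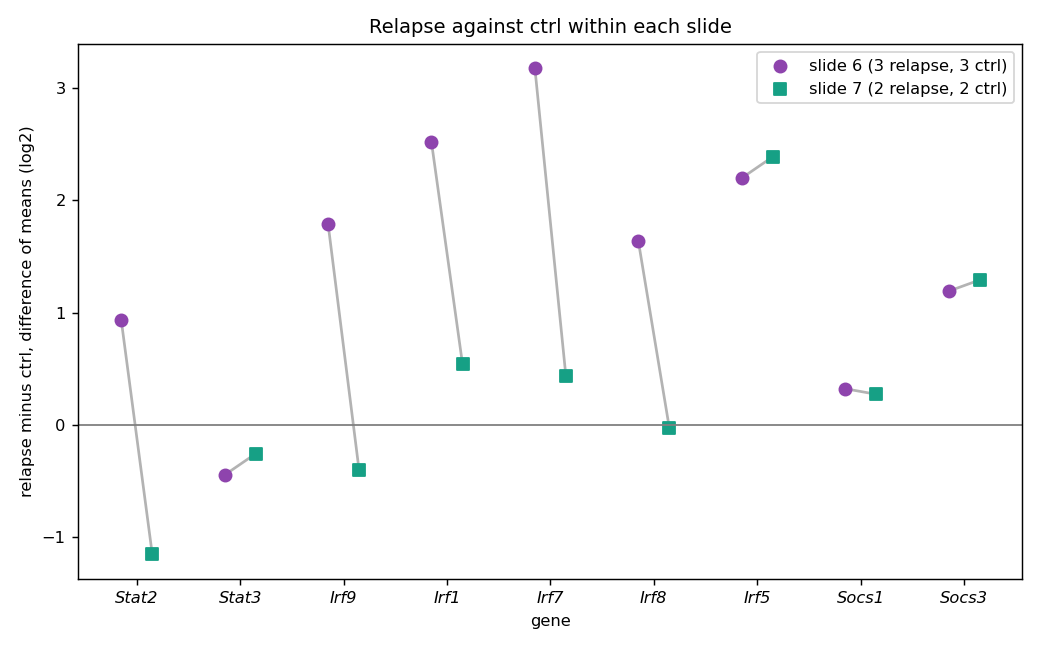
Relapse minus ctrl (difference of means, log2) for each of the 9 genes on slide 6 (circles, 3 against 3 tumours) and slide 7 (squares, 2 against 2 tumours). Stat2, Irf9, Irf1, Irf7 and Irf8 lie lower on slide 7, by 1.67 to 2.75, while Irf5, Socs1, Socs3 and Stat3 lie close together.

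Whether the change early during treatment differed from the change at relapse was tested directly, as the EDT effect minus the relapse effect over all 26 arrays. The effect was larger in EDT for 2 of the 9 genes, and smaller for 0, while 16.6% of all genes differed, 9.76% with a larger effect in EDT and 6.8% with a smaller one. The median difference over all genes was 0.07. Early and relapse tumours were measured in separate sets with their own controls, so stage and set of arrays cannot be told apart in these differences. Stat2 differed by 1.91 ± 0.48 (adjusted p = 0.0099) and Irf8 by 1.58 ± 0.45 (adjusted p = 0.019). The Irf8 call was lost with median centring (1.44, adjusted p = 0.0784) and without relapse tumour 5 (1.31, adjusted p = 0.0516), and Stat2 gave 1.08 without background correction (adjusted p = 0.0113). Irf1 missed the threshold at 1.17 ± 0.41 (adjusted p = 0.0505) and passed with the authors' values (1.30, adjusted p = 0.028), without background correction (1.16, adjusted p = 0.0414), and in 9 of 26 fits that left out 1 tumour (EDT 2, 5 or 6, NT 5, relapse 1, 2 or 3, ctrl 2 or 3; 1.22 to 1.36, adjusted p of 0.0271 to 0.0487).

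The other differences did not pass in limma: 0.74 ± 0.33 for Stat3 (adjusted p = 0.123, and 0.0472 without relapse tumour 1), 0.37 ± 0.34 for Socs1 (0.486), 0.11 ± 0.42 for Irf5 (0.89), -0.09 ± 0.37 for Irf9 (0.89), -0.13 ± 0.75 for Irf7 (0.926) and -0.31 ± 0.45 for Socs3 (0.68). Irf5 thus combined a 5.2-fold rise in EDT with a 4.83-fold rise at relapse. For Irf7 the SE was the widest of the 9, so that a difference of the size seen for Irf1 was not detectable at this number of arrays.

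**Figure D4:**
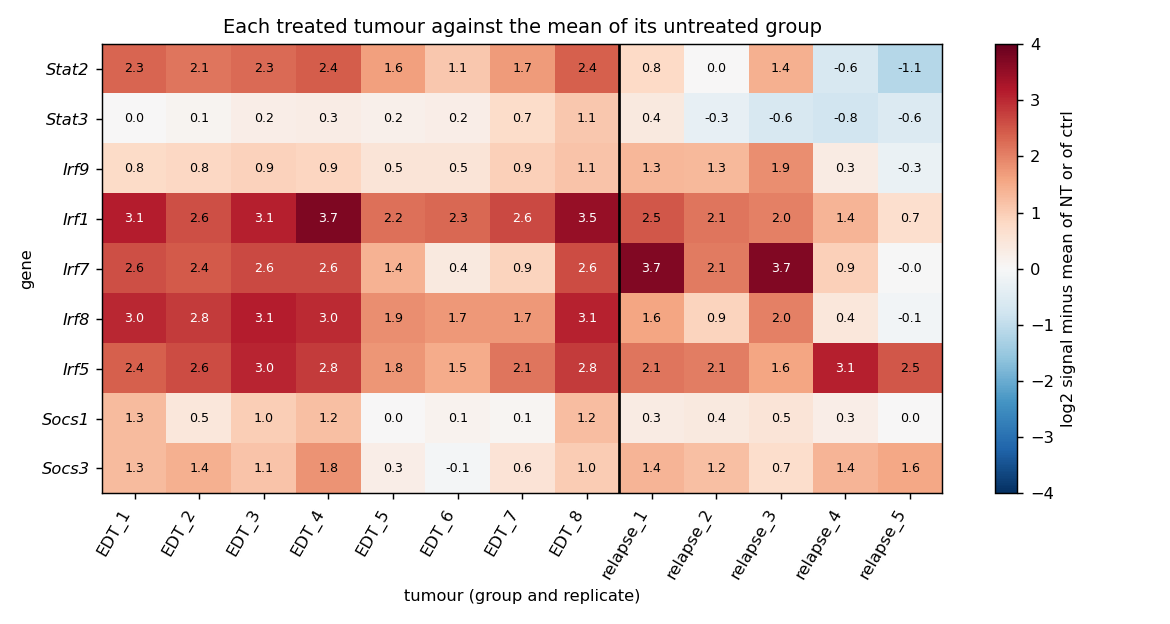
Log2 signal of each of the 9 genes in each EDT tumour minus the NT mean, and in each relapse tumour minus the ctrl mean (colour and printed value). EDT tumours 5, 6 and 7 have the smallest values of the 8 for Stat2, Irf7, Irf8 and Socs1, and relapse tumours 4 and 5 are below 0 for Stat2 while Irf5 stays above 1.5 in every treated tumour but EDT tumour 6.

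Within the EDT group the 9 genes did not vary alike. Irf8 was 10.50 to 10.85 in EDT tumours 1, 2, 3, 4 and 8 and 9.57, 9.44 and 9.43 in EDT tumours 5, 7 and 6, all above NT. Irf7 showed the same division, with 7.49 to 7.69 in the first set and 6.43, 5.92 and 5.43 in EDT tumours 5, 7 and 6. EDT tumours 1, 2 and 3, all with the higher values, were on slide 2. Tumours 5 and 6 were on slide 3 with EDT tumour 4, and tumour 7 was on slide 5 with EDT tumour 8. The part of the slides in this division was not tested. Stat3 was highest in EDT tumours 8 and 7, at 11.61 and 11.26, and 10.54 to 10.84 in the rest.

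The same 3 tumours had the lowest leukocyte signal. The mean log2 signal of 10 leukocyte genes was 10.44, 11.23, 10.76, 10.74, 9.89, 9.69, 10.06 and 10.86 in EDT tumours 1 to 8. Because the Irf7 and Irf8 values fell into 2 separate sets of 5 and 3 tumours, no correlation is given for them. For the remaining genes the relation to the leukocyte signal was tested over the 8 EDT tumours by exact permutation, two-sided, with adjustment over all 9 genes. Of these, Stat2 was divided in the same way, with 7.65, 7.11 and 7.74 in EDT tumours 5, 6 and 7 and 8.18 to 8.45 in the others. Irf5 and Socs3 were also lowest in those 3 tumours, so the r of these genes does not show a graded relation. Irf5 (r = 0.88, p = 0.00516, adjusted p = 0.0206; rho = 0.83, p = 0.0154, adjusted p = 0.138), Socs3 (r = 0.86, p = 0.00744, adjusted p = 0.0206; rho = 0.71, p = 0.0576, adjusted p = 0.173) and Stat2 (r = 0.84, p = 0.00918, adjusted p = 0.0206; rho = 0.64, p = 0.0962, adjusted p = 0.173) passed by Pearson's r and not by Spearman's rho. Without EDT tumours 5 and 6, the 2 farthest from the median leukocyte signal, r was 0.65, 0.61 and 0.56 in these genes (exact p = 0.163, 0.179 and 0.274), so the relation rests on those tumours. Leaving out any single one of EDT tumours 3 to 8 also ended these 3 calls, with r of 0.75 to 0.98 over all single omissions.

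Irf9 (r = 0.67, exact p = 0.0713, rho = 0.57), Socs1 (r = 0.63, exact p = 0.101, rho = 0.52) and Irf1 (r = 0.60, exact p = 0.119, rho = 0.50) did not pass, and each passed without EDT tumour 2 (r of 0.81, 0.90 and 0.93). Stat3 had an r of 0.06 and a rho of 0.06 (exact p = 0.895 and 0.901).

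**Figure D5:**
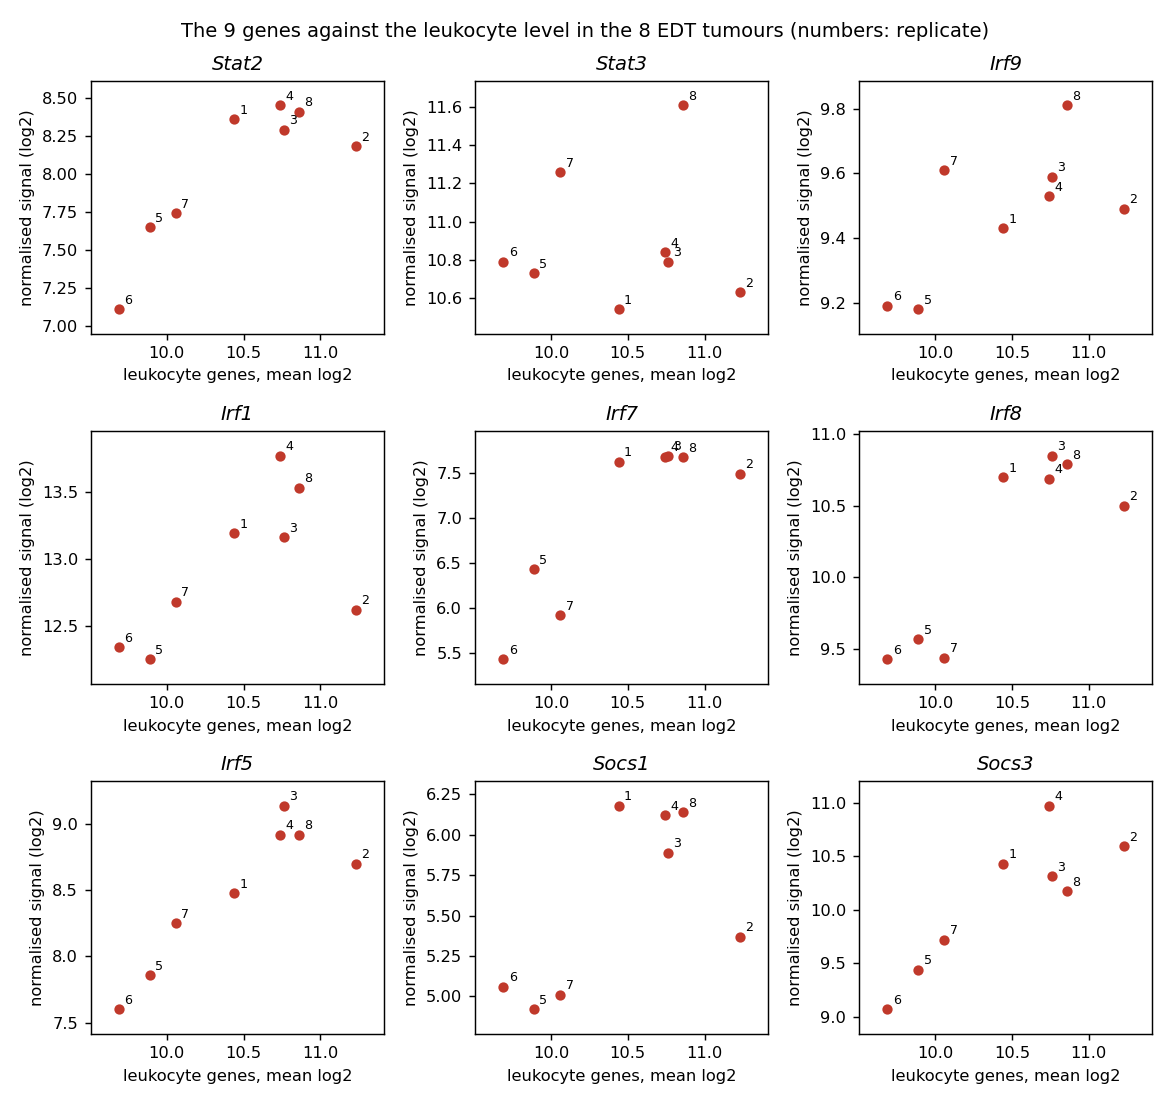
Normalised signal (log2, y axis) of each of the 9 genes against the mean log2 signal of 10 leukocyte genes (x axis) in the 8 EDT tumours, numbered by replicate. EDT tumours 5, 6 and 7 are lowest on the x axis and lowest for Stat2, Irf7, Irf8, Irf5 and Socs3, while Stat3 is highest in tumours 8 and 7.

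Many markers of infiltrating cells were higher in the treated groups, though not in every list. In EDT against NT 9 of 10 leukocyte genes, 13 of 13 macrophage and monocyte genes and 7 of 7 T cell genes rose, and 9, 12 and 5 of them rose in relapse against ctrl. The T cell count could be set by the detection filter, since 6 of the 7 genes passed it only through treated tumours, as did 1 leukocyte gene (Ptprc) and 1 macrophage gene (Itgam). Of the genes that also passed through NT or ctrl arrays, 8 of 9 leukocyte genes and 12 of 12 macrophage genes rose in EDT, and 8 and 11 in relapse tumours. The 1 such T cell gene rose in EDT and not in relapse tumours. Of 4 dendritic cell, 6 neutrophil and 2 B cell genes tested, 2, 3 and 1 rose in EDT and 0, 2 and 1 in relapse tumours. Among those that also passed through NT or ctrl arrays, 0 of 2 dendritic cell and 1 of 3 neutrophil genes rose in each comparison. The 2 B cell genes (Cd79b and Cd22) passed only through treated tumours, which favours a higher value there. The summed leukocyte signal, in log2, was 14.63 to 15.90 in EDT and 12.77 to 13.91 in NT tumours, and 13.72 to 15.41 in relapse and 12.24 to 13.32 in ctrl tumours. The summed T cell signal was 11.24 to 13.94 in EDT and 9.89 to 10.59 in NT tumours, and 10.42 to 11.39 in relapse and 10.05 to 10.76 in ctrl tumours. Cd3d and Cd3g, chains of the T cell receptor complex, were detected on 0 NT and 0 ctrl arrays. Of 10 melanocyte genes, 2 fell in EDT and 10 in relapse tumours, with median changes of -0.50 and -3.75. How far these markers account for the changes of the 9 genes was not tested.

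To see which genes had the most similar pattern, each gene was correlated with every other over the 16 arrays of the first set and over the 10 of the second, and the lower of the 2 r values was taken. The difference between groups enters these values, and they carry no test. Irf1 was closest to Phf11a (0.973), Oasl2 (0.967) and the interferon-inducible GTPase gene Gbp2 (0.958). Irf8 was closest to Gm12250 (0.955), Ubd (0.948) and H2-Q5 (0.945). Irf9 was closest to the interferon-inducible genes Trim21 (0.906) and Sp100 (0.901) and to Phf11d (0.884).

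Irf7 was closest to Pacsin1 (0.938), Ccl1 (0.934) and Oas1g (0.934). Stat2 was closest to Gbp10 (0.853), Cd160 (0.845) and Casp4 (0.843). Irf5 paired with H2-DMa (0.974), which loads peptides on MHC class II, the pattern receptor gene Tlr2 (0.965) and the leukocyte surface gene Cd52 (0.963), and Socs3 with Junb (0.846), Syngr2 (0.832) and Fcer1g (0.823). The highest values for Socs1 (Irgm1, 0.730) and Stat3 (Dppa2, 0.681) were lower.

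Among the 9 genes the pairs differed between the sets. Over the 16 arrays of the first set Irf1 and Irf5 had an r of 0.97, Irf1 and Irf8 of 0.96, and Stat2 and Irf5 of 0.84. Over the 10 arrays of the second set Irf5 and Socs3 had the highest r, 0.94, followed by Irf9 and Irf8 with 0.90, while Stat2 had -0.10 with Irf5 and -0.13 with Socs3.

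The rest of the pathway was read from fixed lists, in the order in which a signal travels. The counts are to be read against 14.5% of all genes higher and 15.1% lower in EDT, and 13.3% higher and 17.5% lower in relapse tumours. Of 15 ligand genes 3 were tested (Ifng, Osm and Ebi3), and all 3 passed the detection filter only through treated tumours, so their count is not given as a result. For the same reason the p-values of Ifng and Ebi3 are given as description and not as support for a rise. Ifng, the gene of interferon gamma, was detected on 7 EDT, 0 NT, 1 relapse and 0 ctrl arrays. It was at least 1.9-fold higher in EDT, and its measured change was 2.04 ± 0.27 (limma adjusted p = 2.46e-05). Ebi3, a subunit of interleukin 27, rose by 2.08 ± 0.17 in EDT (adjusted p = 1.05e-07) and by 2.17 ± 0.24 in relapse tumours (adjusted p = 0.000194).

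Of 11 receptor genes tested, 5 rose and 1 fell in EDT and 4 rose and 0 fell in relapse tumours. Of these, 5 passed the filter only through treated tumours (Il10ra, Il27ra, Il6ra, Lifr and Csf3r), and among the other 6, 1 rose and 1 fell in EDT and 1 rose in relapse tumours. Il10ra, the interleukin 10 receptor subunit, rose by 2.41 ± 0.26 in EDT (adjusted p = 2.22e-06) and 2.61 ± 0.34 in relapse tumours (adjusted p = 0.000413), and Il27ra rose by 1.66 ± 0.29 in EDT (adjusted p = 0.000464). Ifngr1, the ligand-binding chain for interferon gamma, rose by 0.89 ± 0.19 (adjusted p = 0.00228) and 1.08 ± 0.30 (adjusted p = 0.0179). Its partner Ifngr2 gave -0.07 (adjusted p = 0.866) and -0.83 (adjusted p = 0.0571), and the type I interferon receptor gene Ifnar2 0.24 (adjusted p = 0.225) and -0.19 (adjusted p = 0.583). Ifnar1 was not detected on enough arrays to be tested.

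Of the 4 Janus kinases Jak2 rose in both comparisons, by 0.94 ± 0.16 in EDT (adjusted p = 0.000301) and 1.10 ± 0.20 in relapse tumours (adjusted p = 0.00264). Jak3, which serves receptors of lymphocytes, rose by 0.90 ± 0.24 in EDT (adjusted p = 0.0104) and gave 0.66 in relapse tumours (adjusted p = 0.134). Jak1 and Tyk2 did not pass (0.32 and 0.10 in EDT, adjusted p = 0.374 and 0.558; 0.19 and -0.15 in relapse tumours, adjusted p = 0.569 and 0.575).

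Stat4, which carries interleukin 12 signals in T cells, was detected on 0 NT and 0 ctrl arrays. It passed the detection filter only through treated tumours, which favours a higher value there. It was at least 2.21-fold higher in EDT and at least 1.66-fold higher in relapse tumours. Its measured changes were 1.98 ± 0.32 (adjusted p = 0.000209) and 1.25 ± 0.36 (adjusted p = 0.021). Stat5a gave -0.11 in EDT (adjusted p = 0.643) and fell by 1.19 ± 0.21 in relapse tumours (adjusted p = 0.00253), and Stat6 did not pass in either (-0.20 and -0.29). Irf2, which shares the binding site of IRF1, rose by 0.62 ± 0.12 in EDT (adjusted p = 0.000821) and gave 0.00 in relapse tumours. Irf3 and Irf4 did not pass in EDT (-0.31 and -0.45, adjusted p = 0.0898 and 0.237) and fell by 0.64 ± 0.21 (adjusted p = 0.0358) and 2.11 ± 0.45 (adjusted p = 0.0056) in relapse tumours. Irf4 is expressed in melanocytes as well as lymphocytes, and the melanocyte list fell in the same tumours. Whether these falls are linked was not tested.

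Of 5 other SOCS family genes tested, 0 rose and 1 fell in EDT, where Socs5 fell by 0.37 ± 0.11 (adjusted p = 0.0209). In relapse tumours 1 rose and 1 fell. Cish rose there by 1.24 ± 0.38 (adjusted p = 0.0288), and its change in EDT was similar but did not pass (1.04 ± 0.40, adjusted p = 0.057). Of 9 further inhibitors, 2 rose and 1 fell in EDT and 1 rose in relapse tumours, shares of few genes that lie near those of all genes. Usp18, which silences the type I interferon receptor, rose by 2.31 ± 0.30 in EDT (adjusted p = 1.97e-05) and gave 2.20 ± 1.02 in relapse tumours (adjusted p = 0.119). Ptpn6, a phosphatase of leukocytes, rose by 2.13 ± 0.23 in EDT (adjusted p = 2.47e-06). Of 12 nucleic acid sensing genes tested, 6 rose and 1 fell in EDT and 3 rose and 1 fell in relapse tumours. The RNA sensor gene Tlr7 rose by 2.05 ± 0.24 in EDT (adjusted p = 8.48e-06), and Ddx58, which encodes RIG-I, by 1.55 ± 0.39 in relapse tumours (adjusted p = 0.0115).

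Targets were called at different rates. All 15 genes of the IRF1 and GAS target list rose in EDT and 13 of 15 in relapse tumours, with median changes of 3.32 and 2.57. Leaving out Ciita and Ido1, which passed the filter only through treated tumours, 13 of 13 rose in EDT and 12 in relapse tumours. Cxcl9, a chemokine that draws T cells, rose by 5.91 ± 0.37 and the GTPase gene Igtp by 4.79 ± 0.32 in EDT (adjusted p = 9.36e-09 and 1.37e-08), and the immunoproteasome gene Psmb8 by 4.20 ± 0.68 in relapse tumours (adjusted p = 0.00144). Of 17 ISGF3 targets listed, 16 had a probe and 9 passed the detection filter, so the rates of the lists cover unlike shares of them. Among those left out, Mx1 and Oas1a were detected on 3 relapse and 0 EDT arrays each, and Rtp4 on 4 EDT and 3 relapse arrays. Of the 9 tested, 7 rose in EDT and 4 in relapse tumours, with median changes of 1.23 and 1.65. Without Oasl1, which passed only through treated tumours, 6 of 8 rose in EDT and 3 in relapse tumours. Oasl2 rose by 2.52 ± 0.26 in EDT (adjusted p = 1.56e-06) and 2.97 ± 0.60 in relapse tumours (adjusted p = 0.00447), and Ifit3 by 1.76 ± 0.26 in EDT (adjusted p = 7.12e-05). Many of the ISGF3 targets also answer to IRF1, so the lists are not exclusive readouts.

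Of 12 STAT3 targets tested, 4 rose and 0 fell in EDT, and 3 rose and 2 fell in relapse tumours. Of those that rose, Lcn2 passed the filter only through treated tumours. Saa3, an acute phase gene, rose by 3.21 ± 0.50 in EDT (adjusted p = 0.000139) and gave -0.04 in relapse tumours. Serpina3n rose by 1.73 ± 0.51 in EDT (adjusted p = 0.016), and Lcn2, an iron-binding protein gene of neutrophils and epithelia, was at least 2.35-fold higher in relapse tumours (adjusted p = 0.0257). On slide 6 the median change was 3.37 for the IRF1 and GAS targets and 2.11 for the ISGF3 targets, against 0.78 and 0.85 on slide 7.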

How the data were processed

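The 9 genes and all gene lists were chosen with earlier results of these data known. The leukocyte correlations were adjusted over the 9 genes alone, and every other adjusted p covers all genes or probes of its fit. The authors deposited an intensity for every probe, averaged over its beads, and the values show neither background correction nor normalization. A detection p-value is deposited beside it. Per the file headers, the second table also gives a bead standard error and bead count as signal columns, and the 16 probes rested on 21 to 63 beads with standard errors of 2.35% to 8.34% of the signal. Slope against log2 of the scanner signals was computed for bright signals alone, where the authors' processed values gave 1.014 to 1.018. The authors' values follow the scanner signals in rank, with array medians between 4.66 and 4.86 and uncentred genes. How they were made is not given in the sources used here. The first table has 4 faulty rows, with signal and detection entries mixed up, which were left out, leaving 45260 probes common to both tables. The platform annotation named 34871 with 1 symbol, 18 with several and 10371 with none, and 0 symbols needed updating.

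Each table was normalized by itself with the neqc function (background, offset 16, then quantiles; negative controls inferred from detection p-values) of limma 3.58.1 under R 4.3.3. The detection filter (p under 0.01 on 5 or more arrays of any group) left 16624 probes. The brightest of them stood for each of 9553 genes. EDT was fitted against NT, relapse against ctrl, and the difference of effects over all 26 arrays, with lmFit and eBayes, two-sided, and Benjamini-Hochberg adjustment at 0.05. A gene detected on no array of 1 group has a lower bound: the mean of the other group over the mean of, per array, the higher of the lowest detected signal and its own. The p given with such a bound is that of the measured change. Named genes were the 9 with every probe, the 3 of highest likeness each, the 2 largest changes per list in EDT and 1 in relapse, and tested interferon receptors, Janus kinases, STATs and IRFs. Replicate numbers are shared between groups, but no label says that they pair samples, and no block was used. The script for the comparisons was tested on simulated data. Alternatives were median centring, no background correction, the authors' values, no detection filter, the mean over probes, slide and replicate blocks, and leaving out 1 tumour at a time.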

Additional observations from a re-analysis of the deposited data

Results flagged for a closer look

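The effect of treatment on Stat2 differed between the sets of tumours: the change in EDT against NT exceeded that in relapse against ctrl by 1.91 ± 0.48 on the log2 scale (limma adjusted p = 0.0099). The effect on Irf8 differed in the same way, by 1.58 ± 0.45 (limma adjusted p = 0.019). In both genes relapse tumours 1 to 3 averaged higher than relapse tumours 4 and 5, at 7.68 and 6.05 for Stat2 and 9.19 and 7.86 for Irf8. Stage of treatment and set of arrays cannot be told apart in these differences of effect.

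Among the ctrl tumours, Irf8 in ctrl tumour 3 was far below the others, at 7.17 against 7.70 for the nearest, a gap of 0.712 of the group's whole range. It was the 1 such value among 36 sets of tumours examined, 9 genes in 4 groups, where chance gives about 1 in 20.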

How the results depend on the processing

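Array number limits precision, and signals of Socs1 and of Irf7 in untreated tumours lay near background. With median centring, which moves the median of all genes to 0.29 in EDT against NT and 0.30 in relapse against ctrl, 2275 genes rose and 174 fell in EDT (1385 and 1446 as reported), 2086 rose and 656 fell in relapse (1270 and 1674 as reported), and 405 and 242 differences were called (932 and 650 as reported), with 1 of the 9 genes among them. Irf5's difference of effects was -0.05 there. With the authors' values 756 genes fell in EDT. With slide as a fixed block 612 rose and 433 fell in EDT, and within slide 5, 410 and 70, with 3 of the 9 genes rising. Within slide 6, 329 rose and 239 fell in relapse, and within slide 7, 1142 and 1300, with 2 of the 9 genes rising, where Stat2, Irf9 and Irf8 turned to -1.16, -0.41 and -0.03.

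Leaving out 1 tumour at a time left 605 to 1396 positive and 430 to 1101 negative differences of effect, with 1 to 4 of the 9 genes positive. The lowest came without relapse replicate 5, the 1101 without relapse replicate 3 and the 4 without relapse replicate 1. Stat2 in relapse ran from -0.24 to 0.40, and the differences of Irf5 from -0.12 to 0.31, Irf7 from -0.65 to 0.28 and Irf9 from -0.39 to 0.14. Stat3's r with the leukocyte signal was -0.06 with median centring, -0.07 with the authors' values, and -0.33 to 0.30 over tumours left out. Socs1 and Socs3 in EDT ran from 0.25 to 0.88 and 0.82 to 1.29 over the other settings. With a replicate block Irf1 rose by 2.90 in EDT (adjusted p = 3.14e-05) and 1.73 in relapse (adjusted p = 0.0186), and it changed no call of the 9 genes in these comparisons. It was not run for the difference of effects. Deviations of same-numbered samples correlated at -0.053 to 0.18 in EDT and NT, and in relapse and ctrl at 0.111, 0.285 and 0.344 for numbers 1 to 3, each its own best match, but at 0.042 and -0.057 for numbers 4 and 5. Causes were not tested.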
